A study of Mus musculus with 8 samples.

Results

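The 6 mouse genes Cyp2a4, Cyp2a5, Cyp2a12, Cyp2b9, Cyp2b10 and Cyp2b13 were examined in liver RNA from rilpivirine-treated and control mice. They are the members of the Cyp2a and Cyp2b families of cytochrome P450 enzymes named by the symbols above, out of 22180 genes with a named probe set on the array. Each of the 6 was measured by exactly 1 probe set, no probe set named a member together with another gene, and all 6 were among the 16635 genes tested. The series holds 8 whole-transcript arrays of snap-frozen liver from wild-type C57BL/6 mice. 4 samples came from mice given rilpivirine, a non-nucleoside reverse transcriptase inhibitor taken by mouth against HIV, and 4 from a control group. The labels call all 8 samples non-alcoholic fatty liver disease and state daily oral dosing equivalent to human use, without a figure. A normal and a 60% fat diet over 3 months are mentioned without saying which samples received which, and the sources used here give neither age, sex nor the control's vehicle. Nothing says that the samples of a group came from separate animals, so p-values measure only the spread between these samples, which may be technical.

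Enzymes of the Cyp2a and Cyp2b families sit in the membrane of the endoplasmic reticulum of hepatocytes and oxidise drugs, steroids and other small lipophilic molecules. Cyp2b10 is the classic target of the nuclear receptor CAR, which drugs such as phenobarbital activate, and the related receptor PXR shares many of its targets. Cyp2a5 hydroxylates coumarin and nicotine. Cyp2a4 is a testosterone hydroxylase found mainly in females, Cyp2a12 hydroxylates steroids and bile acids, and Cyp2b9 and Cyp2b13 are constitutive, female-predominant members of their family. Basal levels of several members follow growth hormone rhythm, sex and the time of day, the last through the clock output factors DBP, TEF and HLF. Because several members depend on sex, Xist of the inactive X chromosome was read in the same arrays, at 6.69 to 8.68 log2 in all 8. No value of the Y-linked Eif2s3y, Kdm5d and Uty exceeded 2.53 log2, which is under the filter on low means (2.72 log2). By these transcripts all 8 samples read as female, though the labels do not give the sex.

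All 6 genes lie in a single cluster on chromosome 7 that holds 13 Cyp2 genes of the a, b, f, g, s and t families in the RefSeq annotation of GRCm38.p6. Along the chromosome Cyp2b10, Cyp2b13, Cyp2b9 and Cyp2a4 come in this order, and Cyp2a5 and Cyp2a12 stand further on with Cyp2a22 between them. RefSeq promoter sequences were found for the 6 members. They are shown because members of the families fall into near-identical pairs at the start of the gene. Over windows of 300 bases (250 before and 50 after the start), Cyp2a4 and Cyp2a5 differed at 5 of 299 aligned bases and Cyp2b9 and Cyp2b13 at 2 of 300. Cyp2b9 and Cyp2b10 were 76.1% identical, and Cyp2a4 and Cyp2a12 65.0%. Each line below gives the 200 bases before the start, 5′ to 3′ on the plus strand of GRCm38.p6, for chr7:26306992-26307191 (Cyp2a4), chr7:26835139-26835338 (Cyp2a5), chr7:27028890-27029089 (Cyp2a12), chr7:25897458-25897657 (Cyp2b10) and chr7:26061295-26061494 (Cyp2b13). Capitals mark matches to a C/EBP motif (TTGCNNAA), a TATA box (TATAAA) and the nuclear receptor core AGGTCA, searched on both strands. The stretch of Cyp2b9 differed from that of Cyp2b13 at 1 base.
Cyp2a4: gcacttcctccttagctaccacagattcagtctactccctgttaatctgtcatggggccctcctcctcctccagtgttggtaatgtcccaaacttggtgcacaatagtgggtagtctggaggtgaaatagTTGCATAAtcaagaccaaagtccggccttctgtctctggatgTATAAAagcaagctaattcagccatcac
Cyp2a5: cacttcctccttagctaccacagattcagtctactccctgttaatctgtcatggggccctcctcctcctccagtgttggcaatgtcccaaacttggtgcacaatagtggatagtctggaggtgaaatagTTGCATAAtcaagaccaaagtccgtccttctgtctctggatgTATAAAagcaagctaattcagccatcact
Cyp2a12: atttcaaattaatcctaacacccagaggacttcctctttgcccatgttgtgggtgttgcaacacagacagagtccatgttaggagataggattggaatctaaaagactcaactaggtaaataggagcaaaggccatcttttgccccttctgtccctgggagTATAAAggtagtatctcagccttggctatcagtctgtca
Cyp2b10: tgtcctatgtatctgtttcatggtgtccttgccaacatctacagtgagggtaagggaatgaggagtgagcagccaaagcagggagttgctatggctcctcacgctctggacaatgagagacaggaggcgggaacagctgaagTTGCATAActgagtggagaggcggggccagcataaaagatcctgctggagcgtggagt
Cyp2b13: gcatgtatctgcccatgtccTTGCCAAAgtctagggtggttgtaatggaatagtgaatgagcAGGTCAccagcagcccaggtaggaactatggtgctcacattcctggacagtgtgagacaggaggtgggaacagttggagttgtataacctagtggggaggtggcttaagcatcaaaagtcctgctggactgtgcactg

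The letters TTGCATAA, a match to the C/EBP motif, began 70, 71 and 58 bases before the start in Cyp2a4, Cyp2a5 and Cyp2b10. Cyp2b9 and Cyp2b13 matched the motif at 180 bases before the start, and Cyp2a12 had no match. The receptor core lay 138 bases before the start in Cyp2b9 and Cyp2b13, and on the minus strand 31 and 30 bases after it in Cyp2a4 and Cyp2a5, beyond the stretches printed. Cyp2a12 and Cyp2b10 had no match to it. The TATA box was found 28, 29 and 39 bases before the start in Cyp2a4, Cyp2a5 and Cyp2a12. Of 32851 RefSeq promoter windows of the same length, 10.8% held the C/EBP motif, 13.6% the TATA box and 16.3% the receptor core. No window of the 6 members held the D-box of the clock output factors (TTACNTAA or TTATGTAA, in 2.32% and 0.938% of windows; the reverse complement of the second is a case of the first), the palindrome TTGCGCAA (a case of the C/EBP motif, 0.183%), the STAT motif TTCNNNGAA (8.30%), or AGGTCA repeated directly with 4 or 1 bases between (0.0152% and 0.0396%). These are matches of letters in a short window only, and the distal enhancers of these genes lie outside it.

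None of the 6 members passed an adjusted p of 0.05 in limma, where 0% of all 16635 genes did. Mean levels of Cyp2a4 and Cyp2a5 were 1.43-fold and 1.47-fold lower with rilpivirine, those of Cyp2b9 and Cyp2b13 were higher by 0.22 and 0.39 log2, and Cyp2a12 and Cyp2b10 had lower means by less than their spread. At an unadjusted p under 0.05, 2 of the 6 members were on the lower side and 0 on the higher side, against 3.21% and 2% of all genes (5.21% in both directions). 2 of the 6 had a higher mean, where 43.1% of all genes did. In no member did the 4 rilpivirine values lie wholly apart from the 4 control values, as they did in 3.04% of the genes tested (1.3% higher and 1.73% lower). Liver is a mixture of cells, and fewer hepatocytes could not be told apart from less RNA per hepatocyte. The median difference over all genes tested was -0.03 log2.

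**Figure D1:**
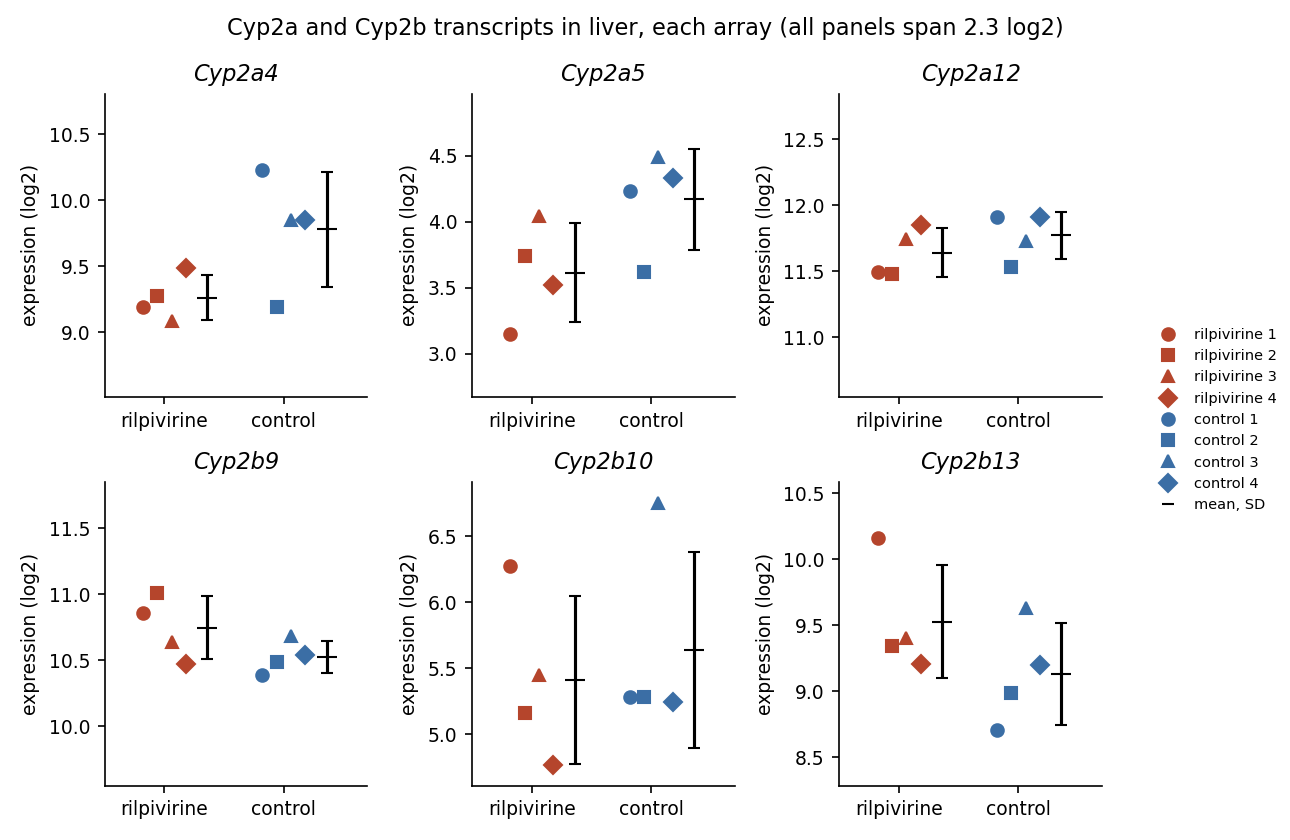
Expression of the 6 members on the log2 scale in each array, with rilpivirine (red, left) and control (blue, right) samples marked by replicate number and black bars for the mean and SD of each group (n = 4). Every panel spans the same log2 range. 3 of the 4 controls lie above every rilpivirine sample in Cyp2a4 and Cyp2a5, while control replicate 2 lies among the rilpivirine samples, and Cyp2b10 is high in rilpivirine replicate 1 and control replicate 3.

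Cyp2a4, the female-predominant steroid hydroxylase, measured 9.19, 9.28, 9.09 and 9.49 log2 in rilpivirine replicates 1 to 4, against 10.23, 9.19, 9.85 and 9.85 log2 in control replicates 1 to 4. The rilpivirine samples were close together, and 3 of the 4 controls lay above all of them, while control replicate 2 lay within their range. The means were 9.26 ± 0.17 log2 with rilpivirine and 9.78 ± 0.43 log2 in controls (SD, n = 4 each). The difference of -0.52 log2 had a 95% confidence interval of -0.95 to -0.08, an unadjusted p of 0.0246 and an adjusted p of 0.890 in limma. With each sample left out in turn, the difference lay between -0.37 log2 (without control replicate 1, unadjusted p = 0.0795 in limma) and -0.71 log2 (without control replicate 2, unadjusted p = 0.000904 in limma). In 5 of these 8 fits the unadjusted p was over 0.05. An exact two-sided permutation test of the same 8 values gave p = 0.114, where 70 groupings allow no p below 0.0286.

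Cyp2a5, whose promoter differs from that of Cyp2a4 at only the few bases given above, measured 3.15, 3.74, 4.04 and 3.52 log2 in rilpivirine replicates 1 to 4, against 4.23, 3.62, 4.49 and 4.33 log2 in the controls. Again 3 of the 4 controls lay above every rilpivirine sample and control replicate 2 lay among them. The means were 3.61 ± 0.37 log2 with rilpivirine and 4.17 ± 0.38 log2 in controls (SD, n = 4 each), a 1.47-fold lower level with rilpivirine. The difference was -0.56 log2 (95% confidence interval -1.04 to -0.07), with an unadjusted p of 0.0283 and an adjusted p of 0.890 in limma, and p = 0.0857 in the exact permutation test. Leaving out each sample in turn gave -0.74 to -0.41 log2, with an unadjusted p over 0.05 in 5 of 8 fits. The probe set was dim, near the median of all genes (3.91 log2). Probes for genes as similar as Cyp2a4 and Cyp2a5 can share signal, and how far these 2 probe sets do was not tested.

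Cyp2a12, the bile acid and steroid hydroxylase, was bright and varied little. It measured 11.49, 11.48, 11.74 and 11.85 log2 in rilpivirine replicates 1 to 4, against 11.91, 11.53, 11.73 and 11.91 log2 in the controls. The groups overlapped, and the difference of -0.13 ± 0.14 log2 (SE) had an adjusted p of 0.912 in limma, with a 95% confidence interval of -0.43 to 0.17.

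Cyp2b10, the member that activation of CAR induces most, was not higher on average with rilpivirine. It measured 6.27, 5.16, 5.45 and 4.77 log2 in rilpivirine replicates 1 to 4, against 5.28, 5.28, 6.75 and 5.24 log2 in the controls. A single array in each group, rilpivirine replicate 1 and control replicate 3, stood above the rest, and the other 6 arrays lay between 4.77 and 5.45. The means were 5.41 ± 0.64 log2 with rilpivirine and 5.64 ± 0.74 log2 in controls (SD, n = 4 each). The difference was -0.23 log2 with an adjusted p of 0.935 in limma, and a 95% confidence interval of -1.06 to 0.60. Without control replicate 3 the difference was 0.15 log2, so its sign rests on that array. The spread of Cyp2b10 within groups, an SD of 0.69 log2, was larger than that of 99.3% of the genes tested, and its highest and lowest arrays differed 3.96-fold.

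Cyp2b9, a constitutive member of the family, measured 10.86, 11.01, 10.64 and 10.47 log2 in rilpivirine replicates 1 to 4, against 10.39, 10.49, 10.68 and 10.54 log2 in the controls. Rilpivirine replicates 1 and 2 lay above every control, and replicates 3 and 4 lay within the control range. The difference was 0.22 ± 0.14 log2 (SE), with a 95% confidence interval of -0.09 to 0.53 and an adjusted p of 0.890 in limma. Without rilpivirine replicate 2 it was 0.13 log2.

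Cyp2b13, the neighbour of Cyp2b9 with a nearly identical promoter, measured 10.16, 9.34, 9.40 and 9.21 log2 in rilpivirine replicates 1 to 4, against 8.71, 8.99, 9.63 and 9.20 log2 in the controls. Only rilpivirine replicate 1 lay above the highest control, and 3 of the 4 controls lay below every rilpivirine sample. The means were 9.53 ± 0.43 log2 with rilpivirine and 9.13 ± 0.39 log2 in controls (SD, n = 4 each). The difference was 0.39 log2, with a 95% confidence interval of -0.13 to 0.91 and an adjusted p of 0.890 in limma. Without rilpivirine replicate 1 the difference was 0.18 log2 and without control replicate 1 it was 0.25 log2, so its size rests in part on those arrays. As with the other close pair, shared signal between the Cyp2b9 and Cyp2b13 probe sets was not tested.

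**Figure D2:**
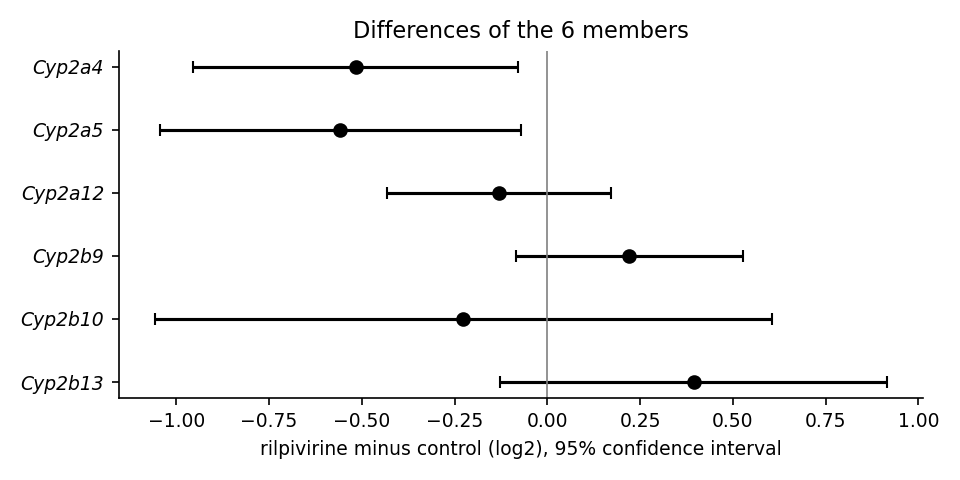
Difference between the rilpivirine and control means of each member on the log2 scale, with 95% confidence intervals of the limma fit (n = 4 in each group). The intervals of Cyp2a4 and Cyp2a5 lie below 0 before any adjustment, and those of the other 4 members include 0.

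The spread within groups divided the members in another way. The within-group SD of Cyp2b13 (0.41 log2), Cyp2a5 (0.38 log2) and Cyp2a4 (0.33 log2) exceeded that of 91.7%, 89.2% and 83.7% of the genes tested. Cyp2b9 and Cyp2a12, the members with the highest signal, had SDs of 0.19 and 0.18 log2, near the median of 0.21 log2 over all genes tested. The Cyp2b neighbours thus had unlike spreads.

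Whether members differed unequally between the groups was tested on the log2 difference of 2 members within each array, for 15 pairs. The difference for Cyp2a5 minus that for Cyp2b9 was -0.78 log2 (95% confidence interval -1.49 to -0.07), with an exact permutation p of 0.0571 and 0.214 after adjustment over the 15 pairs. Cyp2a4 against Cyp2b9 gave -0.74 (interval -1.45 to -0.03), with the same exact permutation p of 0.0571. For Cyp2a5 against Cyp2b13 the value was -0.95 (interval -1.98 to 0.07), and for Cyp2a4 against Cyp2b13 it was -0.91 (interval -1.91 to 0.08). Pairs within a family also had values away from 0. Cyp2a4 against Cyp2a12 gave -0.39 (interval -0.81 to 0.03) and Cyp2b10 against Cyp2b13 gave -0.62 (interval -1.27 to 0.03). Both had an exact permutation p of 0.0857, as had Cyp2a4 against Cyp2b13. In 0 of the 15 pairs did the groups lie apart, and 0 passed an exact permutation p of 0.05 before or after adjustment. As no p below 0.0286 was possible, passing after adjustment would have needed most pairs at that floor. Within the near-identical pairs, Cyp2a4 against Cyp2a5 gave 0.04 log2 (interval -0.61 to 0.69) and Cyp2b9 against Cyp2b13 gave -0.17 log2 (interval -0.76 to 0.42). Both intervals leave room for unequal differences.

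Across the 8 arrays, 8 of the 15 pairs of members correlated positively, and 0 correlations passed adjustment over the 15 pairs. The highest positive value was that of Cyp2a4 and Cyp2a12, with a Pearson r of 0.73 (exact permutation p = 0.04998, adjusted 0.203) and a Spearman rho of 0.60 (exact permutation p = 0.132, adjusted 0.492). It was 0.69 with group means removed and 0.45 without control replicates 1 and 4, the arrays farthest from the median of Cyp2a4. Cyp2a4 and Cyp2a5 had a Pearson r of 0.69 (exact permutation p = 0.0655, adjusted 0.203) and a Spearman rho of 0.55 (exact permutation p = 0.171, adjusted 0.492). Both have lower means with rilpivirine, and with group means removed r was 0.44. Without control replicates 1 and 4 it was 0.59. Cyp2b9 and Cyp2b13 had an r of 0.68 (exact permutation p = 0.0636, adjusted 0.203) and a rho of 0.79 (p = 0.0279, adjusted 0.344 in the exact test), and r was 0.94 without rilpivirine replicates 1 and 2 and 0.57 with group means removed. Cyp2b10 and Cyp2b13 had an r of 0.68 (exact permutation p = 0.0676, adjusted 0.203) and a rho of 0.55 (exact permutation p = 0.171, adjusted 0.492). That r rested on rilpivirine replicate 1 and control replicate 3, without which it was -0.06. With group means removed and both of those arrays still included, r was 0.90.

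Cyp2a12 and Cyp2b9 ran in opposite directions, with an r of -0.74 (exact permutation p = 0.0385, adjusted 0.203) and a rho of -0.74 (exact permutation p = 0.0458, adjusted 0.344). With group means removed r was -0.69. Without rilpivirine replicates 1 and 2, the arrays with the lowest Cyp2a12 and the highest Cyp2b9, r was -0.28, so the relation rests on them. Rilpivirine replicate 2 stood apart from the other arrays over all probe sets too, with a mean correlation of 0.965 with them, against 0.976 to 0.981 for the other 7. Its part in these relations was not tested beyond leaving it out.

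**Figure D3:**
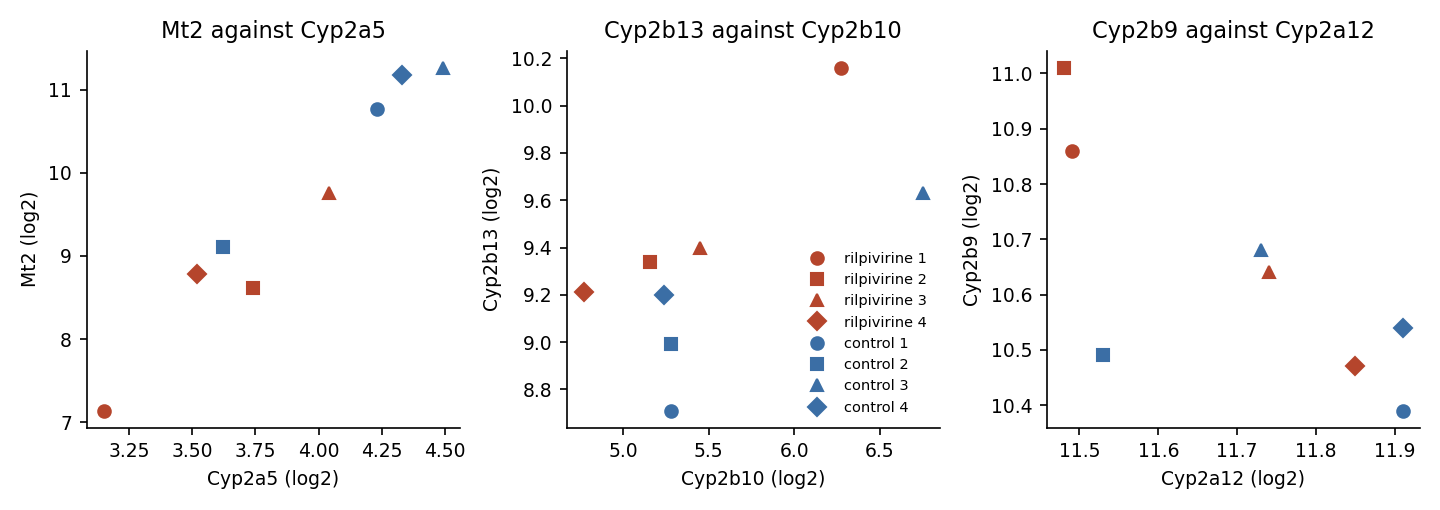
Log2 expression of Mt2 against Cyp2a5, Cyp2b13 against Cyp2b10, and Cyp2b9 against Cyp2a12, a point for each array, with rilpivirine in red and control in blue and the marker giving the replicate number. Mt2 rises with Cyp2a5 over arrays of both groups, the high Cyp2b10 values are those of rilpivirine replicate 1 and control replicate 3, and rilpivirine replicates 1 and 2 combine low Cyp2a12 with high Cyp2b9.

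The genes whose levels followed each member most closely were named by Pearson r over the 8 arrays among 14716 tested genes. Being the highest of so many, these values carry no test. For Cyp2a5 they were Slc41a3 (r = 0.98) and the metallothioneins Mt1 (r = 0.98) and Mt2 (r = 0.98), small proteins that bind zinc and copper. Mt2 measured 7.14, 8.62, 9.76 and 8.78 log2 in rilpivirine replicates 1 to 4, against 10.76, 9.11, 11.26 and 11.17 log2 in the controls. Control replicate 2 was the low control in Mt2 as it was in Cyp2a5, and rilpivirine replicate 3 the high rilpivirine sample in both. With group means removed the r of Cyp2a5 was 0.97 with Mt2 and 0.96 with Mt1. Without the 2 arrays farthest from the median of Cyp2a5 it was 0.95 with Mt2 and 0.96 with Mt1. These values come from the same 8 arrays by which the genes were chosen, so they carry no test either.

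For Cyp2a4 the closest genes were Smim38 (r = 0.93), the mitochondrial carrier Slc25a33 (r = 0.92) and Wbp11 (r = 0.91). Slc25a33 measured 6.03, 6.06, 6.14 and 6.19 log2 in rilpivirine replicates 1 to 4, against 6.92, 5.90, 6.95 and 6.59 log2 in the controls, so that control replicate 2 was again the lowest control. For Cyp2a12 they were Ywhaq, which encodes a 14-3-3 protein (r = 0.99), Apmap (r = 0.99) and Bud31 (r = 0.98). For Cyp2b9 they were the ribosomal protein gene Rpl10a (r = 0.98), the dim receptor gene Ltk (r = 0.97) and the histone gene H2bc18 (r = 0.97). For Cyp2b10 they were Dse (r = 0.96), Fras1 (r = 0.95) and Dtd1 (r = 0.95), whose r was 0.71, 0.56 and 0.65 without rilpivirine replicate 1 and control replicate 3. For Cyp2b13 they were Slc9a9 (r = 0.97), Best2 (r = 0.97) and Cyp1a2 (r = 0.95), another hepatocyte P450 of drug oxidation, with 0.69 for Cyp1a2 without rilpivirine replicate 1 and control replicate 1, the arrays farthest from the median of Cyp2b13.

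Of the 7 other Cyp2 genes of the cluster, 2 (Cyp2b19 and Cyp2b23) lay under the filter on low means and 5 were tested. Means were higher with rilpivirine in 3 and lower in 2 (median 0.08 log2), and 0 had an unadjusted p under 0.05, against 5.21% of all genes. Cyp2f2, a bright P450 of hepatocytes near the portal vein, differed by -0.12 ± 0.12 log2 (SE). The dim Cyp2s1 and Cyp2t4 differed by 0.30 ± 0.16 and 0.22 ± 0.13 log2 (SE).

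Transcription factors and other regulators of the families had mostly lower means with rilpivirine, with 0 past the adjusted threshold. Means of 19 of the 26 tested were lower and those of 7 higher, and their median was -0.16 log2 against -0.03 over all genes. Over all genes tested, 43.1% had higher means. At an unadjusted p under 0.05 there were 6 on the lower side and 0 on the higher side, against 3.21% and 2% of all genes. The list was chosen with earlier results of these data known, so these counts carry no test. The groups lay apart in 2 of the 26, against 3.04% of all genes. Nr1i3, which encodes CAR, measured 8.17, 8.07, 8.33 and 7.69 log2 in rilpivirine replicates 1 to 4, against 8.47, 8.01, 8.30 and 8.38 log2 in the controls. The groups overlapped, with a difference of -0.23 ± 0.16 log2 (SE). Nr1i2, which encodes PXR, measured 7.34, 6.79, 7.19 and 7.13 log2 with rilpivirine, against 7.66, 6.98, 7.71 and 7.83 log2 in controls. Its difference was -0.43 ± 0.19 log2 (SE), and control replicate 2 was the low control here as in Cyp2a4 and Cyp2a5. That array was also the lowest control in Nr1i3 and Cyp2a12, and the highest control in Dbp and Tef.

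The 2 regulators whose groups lay apart were Cux2 and Esr1. Cux2, a female-predominant repressor of male-biased liver genes, measured 4.65, 4.68, 4.86 and 5.05 log2 in rilpivirine replicates 1 to 4, against 5.18, 5.36, 5.55 and 5.42 log2 in the controls. Its difference was -0.57 ± 0.13 log2 (SE), and limma gave an adjusted p of 0.772. Esr1, the estrogen receptor alpha gene, had a difference of -0.51 ± 0.15 log2 (SE) and, in limma, an adjusted p of 0.813. Of the clock output factors, Dbp had a mean of 8.15 ± 0.71 log2 with rilpivirine and 9.03 ± 0.28 log2 in controls (SD, n = 4 each), Tef differed by -0.57 ± 0.18 log2 (SE) and Hlf by -0.29 ± 0.15 log2 (SE). Dbp was lowest in rilpivirine replicates 2 and 4 (7.75 and 7.37 log2). The part of these factors in the values of Cyp2a4 and Cyp2a5 was not tested. The labels give no collection times, and their part in these values was not tested.

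**Figure D4:**
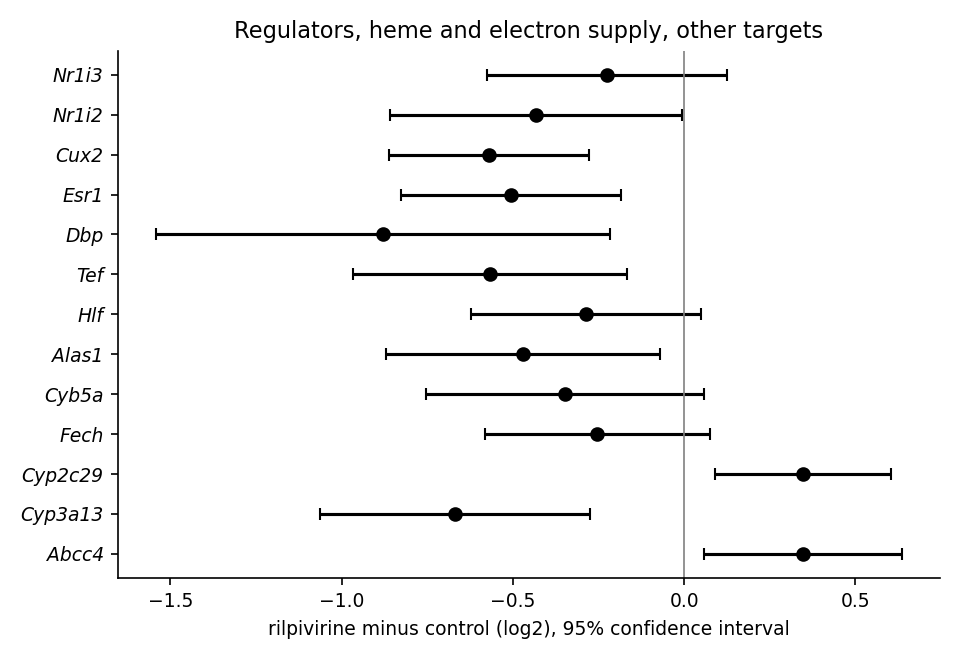
Differences between rilpivirine and control means on the log2 scale with 95% confidence intervals of the limma fit (n = 4 in each group), for regulators of the families (Nr1i3 to Hlf), genes of heme and electron supply (Alas1, Cyb5a and Fech) and other CAR and PXR targets (Cyp2c29, Cyp3a13 and Abcc4). The regulators and supply genes lie below 0, with the intervals of Nr1i3, Hlf, Cyb5a and Fech including it, Cyp3a13 lies below 0 as well, and Cyp2c29 and Abcc4 lie above it.

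The remaining targets of CAR and PXR had values on both sides. Means of 16 of the 28 tested were lower with rilpivirine and those of 12 higher (median -0.09 log2). At an unadjusted p under 0.05 there were 2 on the higher side and 1 on the lower side, against 2% and 3.21% of all genes. The groups lay apart in 2 of the 28, against 3.04% of all genes, and 0 passed the adjusted threshold. Cyp2c29, another P450 that CAR induces, measured 11.47, 11.46, 11.55 and 11.46 log2 in rilpivirine replicates 1 to 4, against 11.01, 11.10, 11.38 and 11.06 log2 in the controls. Every rilpivirine sample lay above every control, with a difference of 0.35 ± 0.12 log2 (SE) and an adjusted p of 0.855 in limma. Abcc4, an efflux transporter, had a difference of 0.35 ± 0.13 log2 (SE) with the groups apart as well. Cyp3a13 differed by -0.67 ± 0.18 log2 (SE), with overlapping groups.

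P450 enzymes need heme and electrons from partner proteins. Of 14 genes of heme synthesis, heme breakdown and electron supply, 10 had lower and 4 higher means (median -0.06 log2). Against 5.21% of all genes, 1 of the 14 had an unadjusted p under 0.05. That gene was Alas1, the rate-limiting enzyme of heme synthesis, with 10.43, 10.03, 10.72 and 9.96 log2 in rilpivirine replicates 1 to 4, against 10.95, 10.46, 10.79 and 10.84 log2 in the controls. Its groups overlapped, with a difference of -0.47 ± 0.18 log2 (SE) and an adjusted p of 0.890 in limma. The electron donor Cyb5a differed by -0.35 ± 0.18 log2 (SE) and Fech, which inserts the iron into heme, by -0.25 ± 0.15 log2 (SE).

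Genes known to differ between male and female liver had medians close to that of all genes. Of 18 tested female-predominant genes other than the members, 10 had lower and 8 higher means with rilpivirine (median -0.02 log2). At an unadjusted p under 0.05 there were 3 on the lower side (Cux2, given above, Fmo2 and Cyp39a1) and 0 on the higher side. Over all genes the shares were 3.21% and 2%. The groups lay apart in 1 of the 18, Cux2, against 3.04% of all genes, and 0 passed the adjusted threshold. Fmo2 differed by -0.94 ± 0.29 log2 (SE) and Cyp39a1 by -0.55 ± 0.22 log2 (SE). Both were lowest among controls in replicate 2, at 6.95 and 7.20 log2, as Cyp2a4 was. Of 18 tested male-predominant genes 12 had lower and 6 higher means (median -0.06 log2). An unadjusted p under 0.05 was reached by 1 (C8b) on the lower side and 0 on the higher side, against the same shares of all genes. Again 0 passed the adjusted threshold. The complement genes C8b and C6 differed by -0.62 ± 0.22 and -0.46 ± 0.24 log2 (SE), and Serpina12 by 0.36 ± 0.20 log2 (SE).

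Markers of hepatocytes were bright: of 5 tested, 3 had higher and 2 lower means (median 0.01 log2). Alb, which held the highest value on any array, differed by 0.05 ± 0.10 log2 (SE). Apoa1 and Ttr were the other higher markers, each by 0.01 log2. Serpina1a differed by -0.22 ± 0.16 and Hnf4a by -0.09 ± 0.11 log2 (SE). Of 10 markers of hepatocytes near the central vein, where Cyp2a5 and the Cyp2b enzymes are most abundant, 8 were lower and 2 higher. Averaged over the markers, deviations from the 8-array mean lay between -0.15 and 0.03 log2 with rilpivirine, and between 0.01 and 0.07 log2 in controls. Of 7 markers of hepatocytes near the portal vein, 6 were lower and 1 higher, and their deviations lay between -0.25 and 0.10 log2 with rilpivirine, and between 0.01 and 0.21 log2 in controls. Of the other cell types, 6 of 6 sinusoidal endothelial markers were higher and 6 of 7 Kupffer cell markers lower with rilpivirine, and 5 of 5 monocyte and macrophage markers were lower. Means were higher in 4 of 4 lymphocyte, 2 of 4 cholangiocyte, 2 of 6 stellate cell and 1 of 3 adipocyte markers, and in 43.1% of all genes. An unadjusted limma p under 0.05 was reached by 3 endothelial and 1 lymphocyte markers on the higher side (2% of all genes). On the lower side (3.21%) were 2 Kupffer, 1 monocyte and macrophage, 1 stellate cell, 1 central vein and 1 portal vein markers. The last 2 were Slc1a2, with a difference of -0.43 ± 0.12 log2 (SE), and Pck1, with -0.62 ± 0.24 log2 (SE). The groups lay apart in 2 Kupffer, 1 stellate cell and 1 central vein (Slc1a2) markers, against 3.04% of all genes. Endothelial markers deviated by -0.16 to 0.27 log2 with rilpivirine and -0.32 to 0.01 log2 in controls, and Kupffer markers by -0.33 to 0.15 log2 with rilpivirine and -0.11 to 0.32 log2 in controls. 3 of 5 neutrophil markers (S100a8, S100a9 and Retnlg) lay under the filter, and red cell markers were not analysed here. The part of cell composition in the values of the 6 members was not tested.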

How the data were processed

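Total RNA (300 ng per sample) was measured on 1-colour Affymetrix whole-transcript arrays, per the labels' protocols. Values of 41345 probe sets were deposited by the authors on the log2 scale, and the submitters' processing notes name RMA and limma. No version is given in the sources used here. RMA puts the arrays on a common distribution, which removes differences in total signal. Array medians lay between 3.33 and 3.45 log2, and 4 arrays per group limit the precision.

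GEO's platform annotation gave the gene names. Only the 23521 with 1 symbol were used, the one with the highest mean per symbol was kept, and 5545 of 22180 genes were dropped for a mean below 2.72 log2, the 25th percentile. Groups were compared in R 4.3.3 by two-sided moderated tests (lmFit, eBayes, limma 3.58.1) without a block and with Benjamini-Hochberg adjustment over 16635 genes. Exact permutation tests over the 70 groupings, and over all pairings for correlations, were run for single values with numpy 2.4.6. The scripts were tested on simulated data. Members and gene lists were chosen with earlier results of these data known. Of each gene list the 3 genes with the smallest p were named, with Nr1i3, Nr1i2, Alas1, Dbp, Tef and Hlf in addition (Por was not analysed here), and 3 genes of highest r for each member, without predicted genes, receptors of smell and small RNAs. Promoters came from RefSeq (GRCm38.p6), and the build of the array annotation is not given in the sources used here. Alternatives were other moderation, array weights, normalization, filters, probe set averaging, a replicate block, the permutation test and leaving out each sample.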

Additional observations from a re-analysis of the deposited data

Results flagged for a closer look

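In groups of 4 samples, a value is listed here when its gap to the nearest other value, as a share of the group's range, exceeded Dixon's 95% critical value. Of 54 groups looked at, 4 met this, where chance gives about 1 in 20. Cyp2b10 stood at 6.75 log2 in control replicate 3, and the other controls lay between 5.24 and 5.28. The transporter gene Abcc4 stood at 5.09 log2 in rilpivirine replicate 4, with the other 3 rilpivirine samples between 4.65 and 4.67. Cyp2c29 stood at 11.55 log2 in rilpivirine replicate 3, with the others between 11.46 and 11.47, a narrow range. Fech stood at 9.15 log2 in control replicate 3, the array of the high Cyp2b10 value, with the other controls between 8.88 and 8.92.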

How the results depend on the processing

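Under 101 values of the 6 differences from other settings, 100 kept their direction and stayed short of the adjusted threshold. The exception was Cyp2b10, at 0.15 log2 without control replicate 3. The smallest adjusted p, in limma, was 0.531. Other moderation, filters, probe set averaging, the replicate block and the permutation test leave each difference unchanged and affect only its p. The count of 100 thus includes values whose direction could not change. Only array weights, normalization and leaving out samples could move a difference. With samples left out in turn, Cyp2a4 ranged from -0.71 to -0.37 log2, Cyp2a5 from -0.74 to -0.41, Cyp2a12 from -0.21 to -0.08, Cyp2b9 from 0.13 to 0.31, Cyp2b10 from -0.51 to 0.15 and Cyp2b13 from 0.18 to 0.56. An unadjusted p under 0.05 was reached by Cyp2a4 in 11 of 17 settings and by Cyp2a5 in 10 of 16, both on the lower side. On the higher side Cyp2b9 reached it in 1 of 17 (without rilpivirine replicate 4) and Cyp2b13 in 1 of 17 (without control replicate 3). Cyp2a5 has no value under a filter at the 50th percentile of the means, which removed it. In every setting limma called 0 of the members and 0 genes over all. The exact permutation test called 0 after adjustment over all genes as well. It allows no p below 0.0286, so a call would have needed most genes at that floor, and this 0 is not informative. Whether the replicate numbers pair the arrays could not be decided from so few arrays. The correlation of same-numbered deviations ran from -0.25 to 0.46. Of the arrays, 1 of 4 rilpivirine arrays and 1 of 4 controls correlated best with its own number. With the replicate number as a block the differences stayed at -0.52 log2 for Cyp2a4 and -0.56 for Cyp2a5. They could not change, since every number occurs in both groups. In limma 1071 genes had an unadjusted p under 0.05 with the block, against 867 without it. The smallest adjusted p over all genes in limma was 0.230 with the block and 0.595 without it. The files hold no background measure, so how far signal over background limits the dim Cyp2a5 was not tested.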
